A study of Mus musculus with 16 samples.

Results

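Endothelial marker genes, 10 in all, were followed across 4 groups of whole mouse liver RNA. They were Stab1, Stab2, Lyve1, Clec4g and Fcgr2b, which are markers of sinusoidal endothelial cells in this organ, Kdr, Flt1, Pecam1 and Ptprb, which most endothelial cells express, and the secreted ligand gene Bmp2. They were taken by name from the 24421 rows of each of 2 count tables, and all 10 were found in both. The DKO livers carried f/f alleles of both ARID1A and ARID1B with Alb-Cre, and their controls had both f/f alleles but lacked Cre. The BKO livers were ARID1B f/f with Alb-Cre and were set against ARID1B f/f livers lacking Cre. Each group held 4 libraries, and libraries are named here by the tags of the labels. Age, sex and strain are not given in the labels. Alb-Cre is a recombinase under the albumin promoter that acts in hepatocytes, so the endothelial cells were not the cells aimed at. Cre was present in every knockout library and in no control, so an effect of Cre itself cannot be told apart, and no group lost ARID1A alone. Apart from the tags, nothing in the labels shows the libraries to be separate animals, and p-values measure the spread between these samples. The BKO controls ARID1B-F5-WT and ARID1B-F5-WT-2 share the tag F5 and may come from 1 animal. They were counted as 2 of the 4, and with both summed 0 of the 10 genes still passed in BKO livers.

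Liver sinusoids are lined by a fenestrated endothelium without a continuous basement membrane. Its cells clear hyaluronan, denatured collagen and small immune complexes from the blood through scavenger, lectin and Fc receptors, and they depend on VEGF signalling to keep this form. They also send signals to the hepatocytes beside them, among which BMP2 drives expression of the iron hormone hepcidin. Endothelial cells of ordinary capillaries and larger vessels share the general markers but express little of the scavenger set.

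The promoter sequences of 4 receptor genes are shown because 2 of them, Clec4g and Kdr, were lower in the DKO fit or close to its threshold, while Stab2 and Flt1, of related function, were not. Each is the 250 bases before the gene start of RefSeq, 5′ to 3′ on the minus strand of GRCm38.p6. For Kdr and Stab2 this start differs from the GENCODE start. Capitals mark the ETS core motif, searched as AGGAAG or CGGAAG on both strands.
Clec4g, chr8:3720652-3720901: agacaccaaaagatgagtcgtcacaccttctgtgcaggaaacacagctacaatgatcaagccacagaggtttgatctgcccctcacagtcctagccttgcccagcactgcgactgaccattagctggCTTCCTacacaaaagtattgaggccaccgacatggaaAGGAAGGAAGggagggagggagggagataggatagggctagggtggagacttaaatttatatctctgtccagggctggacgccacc
Stab2, chr10:87007943-87008192: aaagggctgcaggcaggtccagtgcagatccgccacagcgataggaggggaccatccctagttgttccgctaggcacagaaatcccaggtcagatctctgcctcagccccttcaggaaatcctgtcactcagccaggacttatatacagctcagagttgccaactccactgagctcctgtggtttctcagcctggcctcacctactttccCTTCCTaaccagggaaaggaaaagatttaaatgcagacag
Kdr, chr5:75978456-75978705: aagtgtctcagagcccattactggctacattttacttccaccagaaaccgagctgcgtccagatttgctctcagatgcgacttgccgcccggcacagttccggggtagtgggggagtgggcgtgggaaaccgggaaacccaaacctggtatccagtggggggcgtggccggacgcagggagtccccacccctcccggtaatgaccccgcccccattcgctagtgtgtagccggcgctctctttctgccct
Flt1, chr5:147726012-147726261: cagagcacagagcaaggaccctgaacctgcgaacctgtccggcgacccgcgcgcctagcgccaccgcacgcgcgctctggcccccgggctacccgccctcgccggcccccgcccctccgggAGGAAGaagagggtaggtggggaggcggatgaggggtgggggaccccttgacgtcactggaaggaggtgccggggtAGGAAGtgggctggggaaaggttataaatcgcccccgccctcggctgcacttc
Clec4g held 3 matches, of which the downstream 2 overlap, at 86 and 82 bases before the start, and the third lay at 123 bases on the other strand. Flt1 held 2 matches, Stab2 held 1 and Kdr held 0. RefSeq entries were matched for 6 of the 10 genes, and 4 of these 6 held the motif (Stab1 held 2 matches and Fcgr2b 0), against 39.2% of 32851 promoters of the same length. The GATA motif AGATAA was in 0 of 6, against 9.99% of all promoters. These are letter matches and say nothing of binding.

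In DKO livers the endothelial markers moved in different directions. Bmp2, Ptprb and Clec4g fell, Pecam1 rose, and the other 6 did not pass the test. The share of all tested genes that were called was 35.8% in this comparison (19.2% higher, 16.6% lower), so 4 calls among 10 genes is a share near that background. The median log2 fold change of the 10 genes was -0.30, against 0.02 over all 12848 genes tested. In BKO livers none of the 10 passed. In bulk tissue, fewer endothelial cells and less RNA per cell cannot be told apart. Levels are CPM, the counts of a gene scaled to library size and corrected by TMM factors, calls are at an edgeR adjusted p under 0.05, and folds are ratios of mean CPM. Single libraries are listed in the order DKO-7068, DKO-7070, DKO-7112 and DKO-7137 for DKO livers, then WT-7067, WT-7069, WT-7114 and WT-7139 for their controls.

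**Figure D1:**
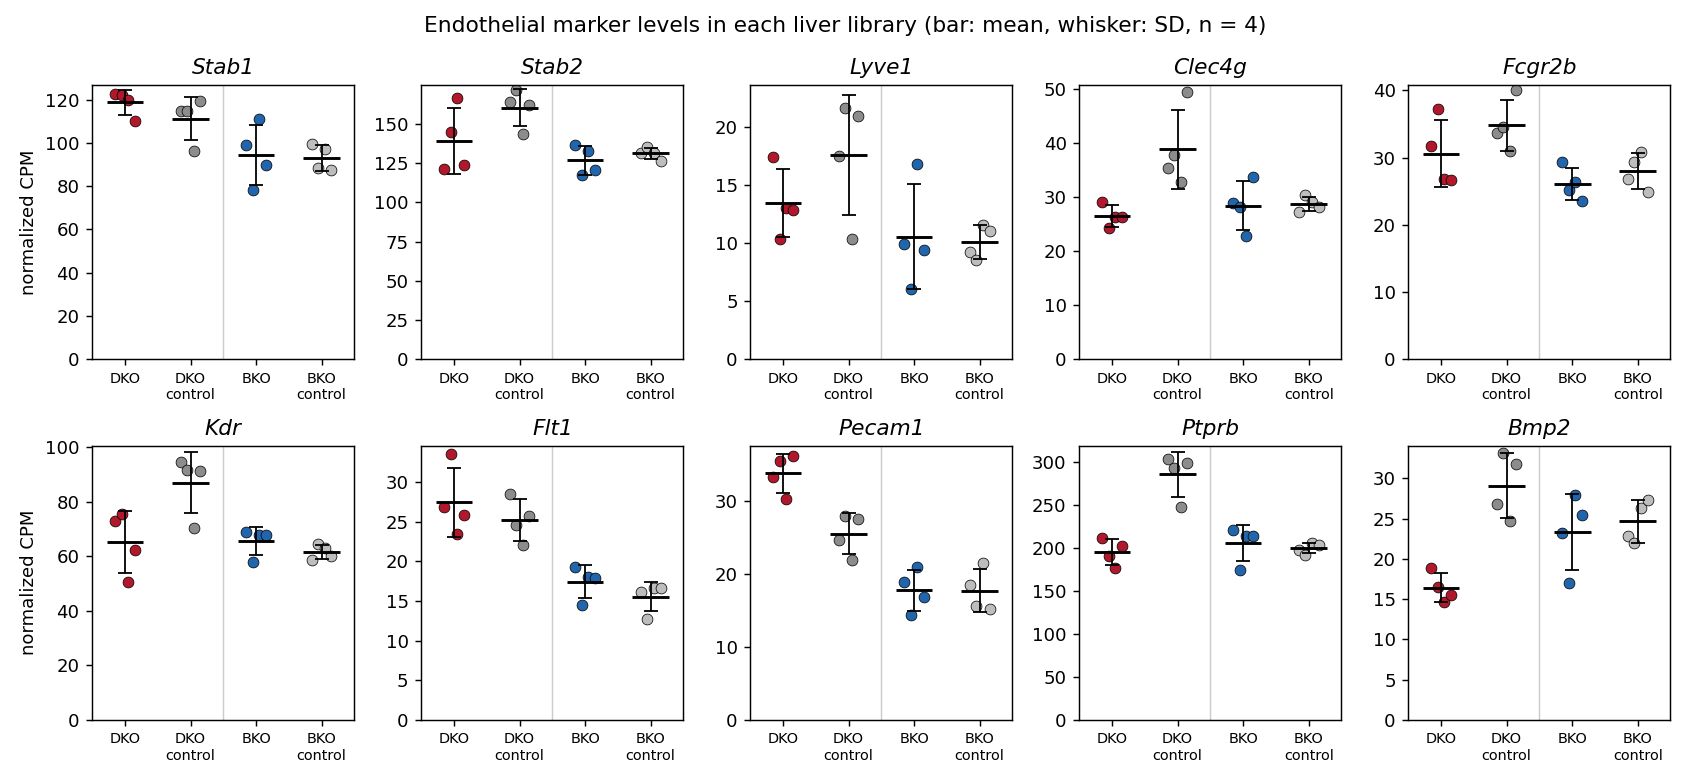
Normalised level in CPM (vertical axis, from 0) of each of the 10 genes in every library, 1 panel per gene, with DKO, DKO control, BKO and BKO control libraries from left to right. Points are libraries and bars are the mean and SD of 4. The DKO points of Bmp2 (14.7 to 18.9), Ptprb (177 to 212) and Clec4g (24.3 to 29.1) all lie below those of their controls, and those of Pecam1 (30.3 to 36.3) all lie above.

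Library totals spanned 8699417 to 11031443 counts for DKO livers with their controls, and 21151726 to 40551934 counts for BKO livers with theirs. Arid1b averaged 60.03 ± 13.7 CPM in DKO livers and 89.3 ± 9.17 CPM in their controls (SD, n = 4 each, edgeR adjusted p = 0.0167), and 44.3 ± 3.98 CPM in BKO livers and 84.8 ± 2.01 CPM in theirs (edgeR adjusted p = 0.00154). Arid1a in DKO livers had a log2 fold change of -0.20 (edgeR adjusted p = 0.149), and whole-gene counts of whole liver do not show the deleted exons. Libraries DKO-7068 and DKO-7070 were closer to each other than any other pair within a group of the DKO experiment, with a chi-square per df of 7.32, against 27.3 for the next pair. They were kept as 2 libraries, and summing them left all 4 calls in place. The measure grows with depth, so pairs of the deeper BKO experiment are not set beside these. Among BKO controls the F5 pair had 70.0, against 33.6 for the closest pair, ARID1B-F2-WT with ARID1B-F5-WT. The control WT-7114 was the lowest of the 4 DKO controls for all 10 genes. The mean of their log2 CPM, each centred on its group, was -0.26 in WT-7114 and 0.02 to 0.15 in the other 3. Without it, 0 of the 10 genes were called higher and 5 lower in DKO livers, Pecam1 losing its call and Kdr and Lyve1 passing. In the same way ARID1B-F3-KO was the lowest BKO library for 8 of the 10.

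Among the hyaluronan and scavenger receptors, no gene passed in DKO livers. Stab1, a scavenger receptor of sinusoidal endothelium and of some macrophages (chromosome 14, 31139013 to 31168641 on GRCm38, minus strand), had 122, 122, 119.8 and 110.1 CPM in the DKO livers, against 115, 115, 96.4 and 119 CPM in the controls. The groups overlapped, and WT-7114 was the lowest library. Its log2 fold change was 0.09 (95% interval -0.13 to 0.32, edgeR adjusted p = 0.519). Stab2, the main hyaluronan clearance receptor of these cells (chromosome 10, 86841198 to 87008025, minus strand), had 121, 145, 167 and 124 CPM in the DKO livers, against 164, 172, 144 and 162 CPM in the controls. DKO-7070 and DKO-7112 lay within the control range and the other 2 DKO libraries below it. This gave a log2 fold change of -0.21 (95% interval -0.49 to 0.08, edgeR adjusted p = 0.242). Lyve1, a hyaluronan receptor shared by sinusoidal and lymphatic endothelium (chromosome 7, 110850607 to 110863239, minus strand), had 17.4, 10.3, 13.03 and 12.8 CPM in the DKO livers, against 17.5, 21.6, 10.3 and 20.9 CPM in the controls. The control WT-7114 lay at the bottom of both groups. The log2 fold change was -0.39 (SE 0.24, edgeR adjusted p = 0.232), and without WT-7114 it was -0.58 (edgeR adjusted p = 0.0399).

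Of the lectin and Fc receptors, Clec4g fell and Fcgr2b did not pass. Clec4g encodes LSECtin, a C-type lectin of sinusoidal endothelium (chromosome 8, 3707064 to 3720651, minus strand), and Gm16553 overlaps it on the opposite strand. It had 29.1, 24.3, 26.3 and 26.2 CPM in the DKO livers, against 35.3, 37.8, 32.8 and 49.3 CPM in the controls. Every DKO library lay below every control, with WT-7139 the highest. The mean of 26.5 ± 1.97 CPM in DKO livers and 38.8 ± 7.33 CPM in controls (SD, n = 4 each) made it 1.47-fold lower (log2 fold change -0.55 with SE 0.14, edgeR adjusted p = 0.00963). With scaling by total counts the value was -0.36 and the call ended (edgeR adjusted p = 0.0726). Fcgr2b, the inhibitory IgG receptor through which these cells take up immune complexes, and which macrophages and B cells also express (chromosome 1, 170958617 to 170976547, minus strand), had 31.7, 37.2, 26.8 and 26.6 CPM in the DKO livers, against 33.7, 34.6, 31.0 and 40.0 CPM in the controls. DKO-7112 and DKO-7137 lay below the control range and the other 2 within it. Its log2 fold change was -0.18 (95% interval -0.48 to 0.11, edgeR adjusted p = 0.316). Fcgr2b shares sequence with neighbouring Fc receptor genes, and how reads common to them were counted is not stated in the sources used here.

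Neither VEGF receptor gene passed in DKO livers. Kdr encodes VEGFR2, the main signalling receptor for VEGF-A (chromosome 5, 75932827 to 75978458, minus strand). It had 73.1, 75.5, 50.7 and 62.2 CPM in the DKO livers, against 94.5, 91.7, 70.2 and 91.5 CPM in the controls. The groups overlapped through WT-7114 alone, which stood apart from the other controls. The log2 fold change of -0.41 (SE 0.15) just missed the threshold (edgeR adjusted p = 0.0503) and passed in 8 of 16 alternative settings. Among them were the fit without WT-7114 (-0.51, edgeR adjusted p = 0.0256) and the fit with a term for the 2 runs of tag numbers (-0.42, edgeR adjusted p = 0.0184). Flt1 encodes VEGFR1, which binds VEGF-A tightly, signals weakly and also exists as a soluble decoy (chromosome 5, 147561604 to 147726011, minus strand). It had 26.9, 33.6, 23.4 and 25.9 CPM in the DKO livers, against 28.4, 24.6, 22.1 and 25.7 CPM in the controls. The groups overlapped throughout (log2 fold change 0.12, 95% interval -0.17 to 0.42, edgeR adjusted p = 0.514). Within each library, the count ratio of Flt1 to Kdr was 0.367, 0.445, 0.463 and 0.417 in DKO livers, against 0.301, 0.268, 0.315 and 0.281 in their controls. All 4 DKO libraries lay above all 4 controls in this ratio, which does not depend on scaling. Of the 45 ratios between 2 of the 10 genes, 19 separated DKO livers from their controls and 2 separated BKO livers from theirs. The share over all gene pairs was not computed, so these counts are not read as a trait of the set. For ratios of all tested genes to Pecam1 the shares were 44.6% in DKO and 2.55% in BKO. In BKO livers the ratio was 0.279, 0.251, 0.266 and 0.263, inside the 0.198 to 0.275 of their controls except for the first.

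Pecam1 and Ptprb, both general endothelial genes at the cell junction, moved in opposite directions. Pecam1 encodes an adhesion molecule that platelets and leukocytes also carry (chromosome 11, 106654217 to 106750628, minus strand). It had 33.3, 35.5, 30.3 and 36.3 CPM in the DKO livers, against 24.7, 27.97, 21.99 and 27.6 CPM in the controls. Every DKO library was above every control, a 1.32-fold rise in the mean (33.9 ± 2.69 CPM in DKO livers, 25.6 ± 2.80 CPM in controls, SD, n = 4 each). On the log2 scale this was 0.40 (SE 0.11, edgeR adjusted p = 0.0173), and the call ended without DKO-7070 (0.36, edgeR adjusted p = 0.0556), without WT-7067 (0.38, edgeR adjusted p = 0.0510) or without WT-7114 (0.33, edgeR adjusted p = 0.0512). Beside this rise, the summed level of 7 recruited macrophage markers was 159.8 to 238 CPM in DKO livers and 36.1 to 50.1 CPM in controls. Pf4, a platelet chemokine gene, was 1.77 ± 0.528 CPM in DKO livers and 0.374 ± 0.229 CPM in controls, at only 1 to 27 counts per library. The other tested platelet marker, the integrin gene Itga2b, had 3.31 ± 0.467 CPM in DKO livers and 3.70 ± 0.350 CPM in controls and did not pass (log2 fold change -0.16, edgeR adjusted p = 0.571). Their part in the Pecam1 level was not tested.

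Ptprb encodes VE-PTP, a phosphatase that restrains the angiopoietin receptor TIE2 and stabilises VE-cadherin junctions (chromosome 10, 116275523 to 116389535, plus strand), and Gm26495 and Gm47625 overlap it on the same strand. It had 212, 190.1, 177 and 203 CPM in the DKO livers, against 304, 293, 247 and 299 CPM in the controls. The groups were well apart, and Ptprb was 1.46-fold lower in DKO livers, at 195 ± 15.1 CPM against 286 ± 26.2 CPM in controls (SD, n = 4 each). On the log2 scale this was -0.55 (SE 0.12, edgeR adjusted p = 0.00513), and under scaling by total counts it was -0.37 and no longer passed (edgeR adjusted p = 0.0516).

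Bmp2, the ligand of the set, had the largest change of the 10 (chromosome 2, 133552159 to 133562885, plus strand). It had 18.9, 16.6, 14.7 and 15.5 CPM in the DKO livers, against 26.8, 33.1, 24.7 and 31.8 CPM in the controls. The highest DKO library lay below the lowest control. Bmp2 was 1.77-fold lower in DKO livers, at 16.4 ± 1.83 CPM against 29.1 ± 4.02 CPM in controls (SD, n = 4 each; log2 fold change -0.82 with SE 0.13, edgeR adjusted p = 0.000965). It was called lower in all 16 alternative settings, with values of -0.91 to -0.63. The count ratio of Bmp2 to Ptprb was 0.0767 to 0.0893 in DKO libraries and 0.0881 to 0.113 in controls, and the ranges overlapped.

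The DKO and control groups did not overlap for 4 of the 10 genes, the same 4 that were called, against 35.4% of all tested genes (18.5% with DKO higher, 16.9% with DKO lower). The tags of the DKO experiment fall into 2 runs of numbers, each with 2 DKO and 2 control libraries. For Bmp2 the log2 ratio of means was -0.76 in the lower run (WT-7067 to DKO-7070) and -0.90 in the higher run (DKO-7112 to WT-7139). For Ptprb it was -0.57 and -0.53, for Clec4g -0.45 and -0.65, and for Pecam1 0.39 and 0.42. Since the groups did not overlap for these 4 genes, their direction within each run was fixed. Of the 6 genes that did not pass, Stab1 had 0.09 in both runs, Stab2 -0.34 and -0.07, Lyve1 -0.49 and -0.27, Kdr -0.33 and -0.52, Flt1 0.19 and 0.04, and Fcgr2b 0.01 and -0.41. Per kilobase of exon, Ptprb was the most abundant of the 10 in the DKO controls (21.4 CPM per kb), followed by Stab2 (18.3), Clec4g (15.8), Stab1 (10.8), Kdr (9.63), Bmp2 (8.18), Lyve1 (6.02), Fcgr2b (6.01), Pecam1 (4.11) and Flt1 (1.87). In DKO livers Stab2 had 15.9 ± 2.43 and Ptprb 14.7 ± 1.13 CPM per kb, a difference within their spread. Pecam1 had 5.44 ± 0.431 and Bmp2 4.62 ± 0.514 CPM per kb there (SD, n = 4). Lyve1 and Fcgr2b were within their spread of each other in both groups.

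**Figure D2:**
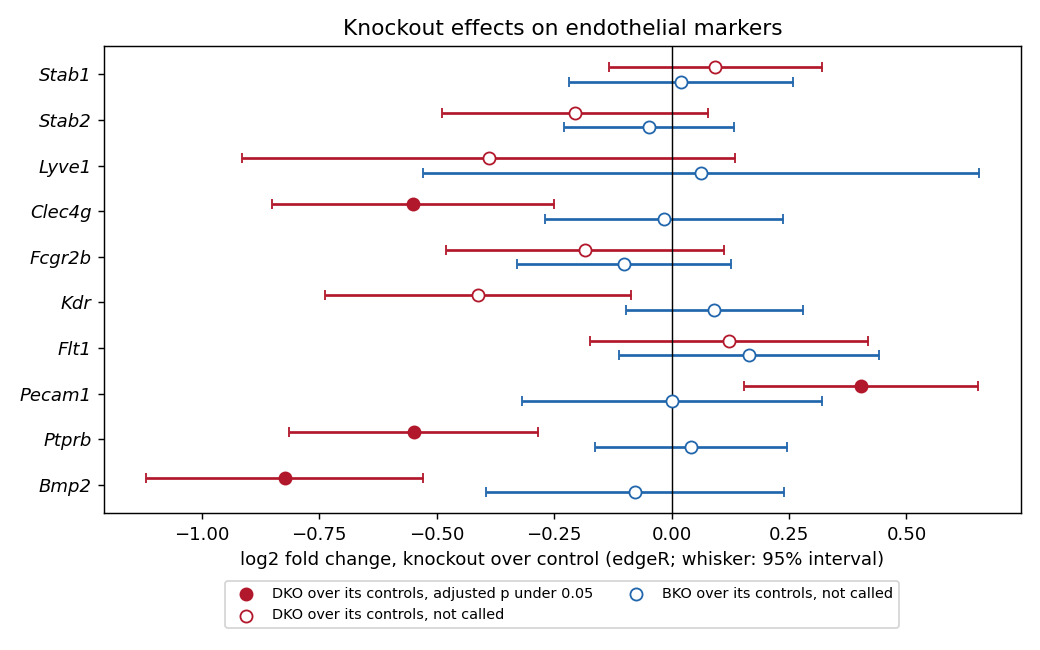
Log2 fold change (horizontal axis) of each of the 10 genes with its 95% interval, DKO against its controls in red and BKO against its controls in blue. Filled points passed an edgeR adjusted p under 0.05. Bmp2 (-0.82), Clec4g (-0.55), Ptprb (-0.55) and Pecam1 (0.40) are filled in DKO, and none is filled in BKO.

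The other 9 genes were also read relative to Pecam1 within the same library. These are ratios of raw counts, free of scaling but not corrected for gene length. They share the denominator Pecam1, which itself rose, so a gene whose CPM did not change has a lower ratio in DKO livers. Over all tested genes the ratio to Pecam1 separated the groups for 44.6% (8.52% with DKO higher, 36.1% with DKO lower). The Bmp2 ratio was 0.567, 0.466, 0.484 and 0.429 in DKO libraries, against 1.08, 1.18, 1.12 and 1.15 in controls. The Ptprb ratio was 6.35, 5.35, 5.85 and 5.59 in DKO libraries, against 12.3, 10.5, 11.2 and 10.8 in controls. Both sets of ratios were far apart between the groups. The groups did not overlap, with the DKO libraries lower, for 7 of the 9 genes, among them Stab1, Stab2, Fcgr2b and Kdr, which did not pass on the CPM scale. In CPM, Bmp2, Ptprb and Clec4g lay wholly lower in DKO livers and Pecam1 wholly higher. Hence the ratios of Bmp2, Ptprb and Clec4g had to separate, and their separation adds nothing to the CPM result. Besides Bmp2 and Ptprb, the Clec4g ratio was 0.786 ± 0.0974 in DKO livers and 1.51 ± 0.190 in controls, and the Kdr ratio 1.93 ± 0.270 in DKO livers and 3.40 ± 0.283 in controls (SD, n = 4 each). The Fcgr2b ratio was 0.905 ± 0.132 in DKO livers and 1.36 ± 0.0921 in controls. The Stab2 ratio was 4.16 ± 0.942 in DKO livers and 6.29 ± 0.356 in controls, and the Stab1 ratio 3.53 ± 0.389 in DKO livers and 4.36 ± 0.216 in controls, the smallest log2 difference of the 7 (-0.31). The ranges for Lyve1 and Flt1 overlapped. In BKO livers 0 of the 9 ratios separated the groups, against 2.55% of all tested genes.

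**Figure D3:**
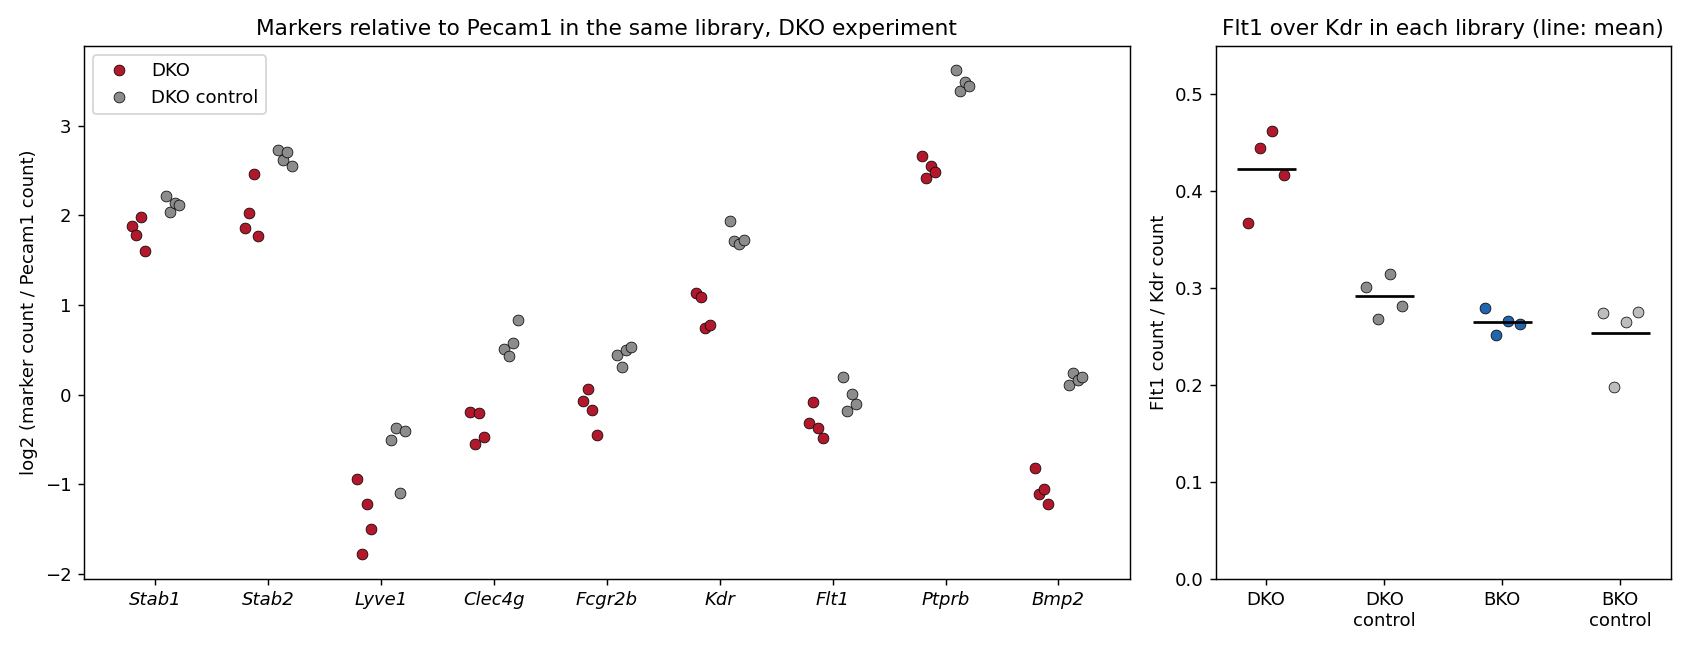
Left, log2 ratio of each gene's count to the Pecam1 count in each DKO and DKO control library. Right, ratio of Flt1 to Kdr counts in each library of the 4 groups. Points are libraries, and the lines on the right are group means. Bmp2 and Ptprb show the clearest gap between DKO and control libraries on the left, and the DKO libraries (0.367 to 0.463) lie above all others on the right. For Bmp2, Ptprb and Clec4g the separation on the left was fixed by their CPM and that of Pecam1.

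In BKO livers no gene of the endothelial set passed. Of the 10 genes 0 were called, against 0.583% of 14061 genes tested (0.185% higher, 0.398% lower), 0 had an unadjusted p under 0.05 in edgeR, and DESeq2 also called 0. The log2 fold changes ran from -0.10 for Fcgr2b to 0.16 for Flt1, with a median of 0.01 and edgeR adjusted p of 0.686 to 0.998. The groups overlapped for all 10, where 7% of all tested genes did not overlap (3.64% with BKO higher, 3.36% with BKO lower). Libraries are listed in the order ARID1B-F1-KO, ARID1B-F3-KO, ARID1B-F4-KO and ARID1B-F6-KO for BKO livers, then ARID1B-F2-WT, ARID1B-F5-WT-2, ARID1B-F5-WT and ARID1B-F7-WT for controls. Bmp2 had 23.1, 17.0, 27.9 and 25.4 CPM in the BKO livers, against 22.9, 22.0, 26.4 and 27.4 CPM in the controls. The groups overlapped, with ARID1B-F3-KO the lowest library and ARID1B-F4-KO the highest (log2 fold change -0.08, 95% interval -0.40 to 0.24). Ptprb had 221, 174, 214 and 214 CPM in the BKO livers, against 198, 192, 206 and 204 CPM in the controls. ARID1B-F3-KO was the lowest library of all and the other BKO libraries were the highest (log2 fold change 0.04, 95% interval -0.16 to 0.25). Clec4g had 28.9, 28.1, 22.7 and 33.7 CPM in the BKO livers, against 27.2, 30.4, 28.96 and 28.03 CPM in the controls. The BKO libraries spread on both sides of the controls (log2 fold change -0.02, 95% interval -0.27 to 0.24). Lyve1 varied most among BKO livers relative to its mean, with 9.91, 6.01, 16.8 and 9.36 CPM in the BKO livers, against 9.17, 8.54, 11.5 and 11.0 CPM in the controls. ARID1B-F4-KO, the highest for Lyve1, also had the highest summed levels of Kupffer cell markers (572 CPM, against 225 to 300 CPM in controls) and of recruited macrophage markers (119 CPM, against 37.6 to 41.0 CPM in controls). Their part in its Lyve1 level was not tested.

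The difference between the knockout effects was tested over all 16 libraries, each effect relative to its own controls. Each knockout had its own experiment, so a difference between knockouts cannot be told apart from one between experiments. Of the 10 genes, 4 passed, all with a lower effect in DKO, against 22.5% of 14050 genes tested (11% higher, 11.5% lower). They were Bmp2 (difference of log2 fold changes -0.78, SE 0.20, edgeR adjusted p = 0.0111), Ptprb (-0.62, SE 0.14, edgeR adjusted p = 0.00435), Clec4g (-0.57, SE 0.18, edgeR adjusted p = 0.0338) and Kdr (-0.53, SE 0.17, edgeR adjusted p = 0.0313). Control levels of these 4, scaled within each experiment, differed too. Bmp2 averaged 29.1 CPM in DKO controls and 24.6 CPM in BKO controls, and Ptprb 286 and 200 CPM. Clec4g averaged 38.8 and 28.6 CPM, and Kdr 87.0 and 61.6 CPM, in the same order. The Pecam1 difference of 0.37 did not pass (95% interval -0.02 to 0.77, edgeR adjusted p = 0.170). Bmp2 and Ptprb passed in 22 of 23 alternative settings, the exception being scaling by total counts (edgeR adjusted p = 0.124 for each), while Clec4g passed in 14 and Kdr in 15. Beside that scaling, Clec4g did not pass without DKO-7070, WT-7139, ARID1B-F1-KO, ARID1B-F3-KO, ARID1B-F6-KO, ARID1B-F2-WT, ARID1B-F5-WT or ARID1B-F7-WT (differences of -0.57 to -0.44, edgeR adjusted p of 0.0531 to 0.0771). Kdr did not pass without WT-7067, WT-7069, WT-7139, ARID1B-F1-KO, ARID1B-F6-KO, ARID1B-F2-WT or ARID1B-F7-WT (differences of -0.52 to -0.50, edgeR adjusted p of 0.0502 to 0.0589). The other 5 genes had differences of -0.48 (Lyve1) to 0.04 (Stab1), with edgeR adjusted p of 0.391 to 0.874.

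The 10 other sinusoidal endothelial genes included 5 that fell, 0 that rose and 5 that did not pass in DKO livers, with a median log2 fold change of -0.35. Over all tested genes 16.6% were called lower and 19.2% higher. Cd300lg, a mucin-like endothelial receptor gene, was 2.72-fold lower (7.25 ± 3.29 CPM in DKO, 19.7 ± 3.63 CPM in controls, SD, n = 4 each). Ehd3, which encodes a membrane trafficking protein, was 1.71-fold lower, at 64.5 ± 12.4 CPM in DKO livers and 111 ± 9.49 CPM in controls. Dnase1l3, which encodes a secreted DNase, was 1.66-fold lower (46.9 ± 11.2 CPM in DKO, 77.9 ± 10.7 CPM in controls), and F8, the coagulation factor VIII gene, 1.44-fold lower (42.4 ± 2.58 CPM in DKO, 60.8 ± 6.06 CPM in controls). Their edgeR adjusted p ran from 0.00185 for Ehd3 to 0.00861 for Cd300lg, and the DKO and control ranges did not overlap for any of these 4. Oit3 was the remaining one (log2 fold change -0.47, edgeR adjusted p = 0.0377). Members that did not pass included Mrc1 (-0.22), Gpr182 (-0.15) and Clec1b (0.12). With scaling by total counts, which moved the median of all genes to 0.20, 2 of the 10 were called lower. In BKO livers 0 of the 10 passed, the lowest unadjusted edgeR p being that of Gata4 (log2 fold change 0.31, edgeR adjusted p = 0.543). The difference between the knockouts passed for 4, all lower in DKO, against 11.5% lower of all genes tested.

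The 24 other general endothelial genes mostly did not pass in DKO livers, where 3 rose, 1 fell and 20 did not pass (median 0.11). This is a smaller share of calls than the 35.8% of all tested genes (19.2% higher, 16.6% lower). Cd93, a C-type lectin-like adhesion receptor gene, was 2.84-fold higher (38.3 ± 6.01 CPM in DKO, 13.5 ± 2.62 CPM in controls), and Ecscr, an endothelial surface protein gene, 2.58-fold higher (3.45 ± 0.395 CPM in DKO, 1.33 ± 0.392 CPM in controls). Esam, a junction adhesion gene, was 1.65-fold higher (13.5 ± 1.63 CPM in DKO, 8.16 ± 1.75 CPM in controls). Their edgeR adjusted p ran from 9.26e-05 for Cd93 to 0.00971 for Esam. Tek, which encodes TIE2, the angiopoietin receptor that VE-PTP restrains, was the 1 that fell (log2 fold change -0.41, edgeR adjusted p = 0.0448), and Cdh5, the VE-cadherin gene, did not pass (0.27, edgeR adjusted p = 0.0531). In the total-count scaling 6 of the 24 were higher and 0 lower. In BKO livers 0 of 24 passed.

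Most tested genes typical of continuous capillaries and larger vessels rose in DKO livers. Of 14 listed, 11 were tested, of which 7 rose, 0 fell and 4 did not pass, with a median of 0.95. Of all tested genes, 19.2% were called higher and 16.6% lower. Cav1, which encodes the coat protein of caveolae, was 5.92-fold higher (12.9 ± 2.09 CPM in DKO, 2.18 ± 0.873 CPM in controls, edgeR adjusted p = 6.82e-05). Cd34, a sialomucin gene of capillary endothelium that fibroblasts also express, was 7.05-fold higher (9.01 ± 2.86 CPM in DKO, 1.28 ± 0.553 CPM in controls, edgeR adjusted p = 0.000191). Esm1, a secreted proteoglycan gene of growing vessel tips, had 4.57 ± 2.47 CPM in DKO and 0.310 ± 0.286 CPM in controls, where 1 library had no count. Efnb2, Gja5, Hey1 and Vwf were the other 4 that rose, while Plvap, which encodes the protein of fenestral diaphragms, did not pass (-0.26, edgeR adjusted p = 0.184). The count of higher genes was 6 or 7 in each of the 16 alternative settings. In BKO livers 0 of 11 passed, and the difference between knockouts passed for 3, all higher in DKO, against 11% higher of all genes tested. Stellate cell markers moved with this group: their summed level was 1775 to 2617 CPM in DKO livers and 286 to 449 CPM in controls, and their part in it was not tested.

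**Figure D4:**
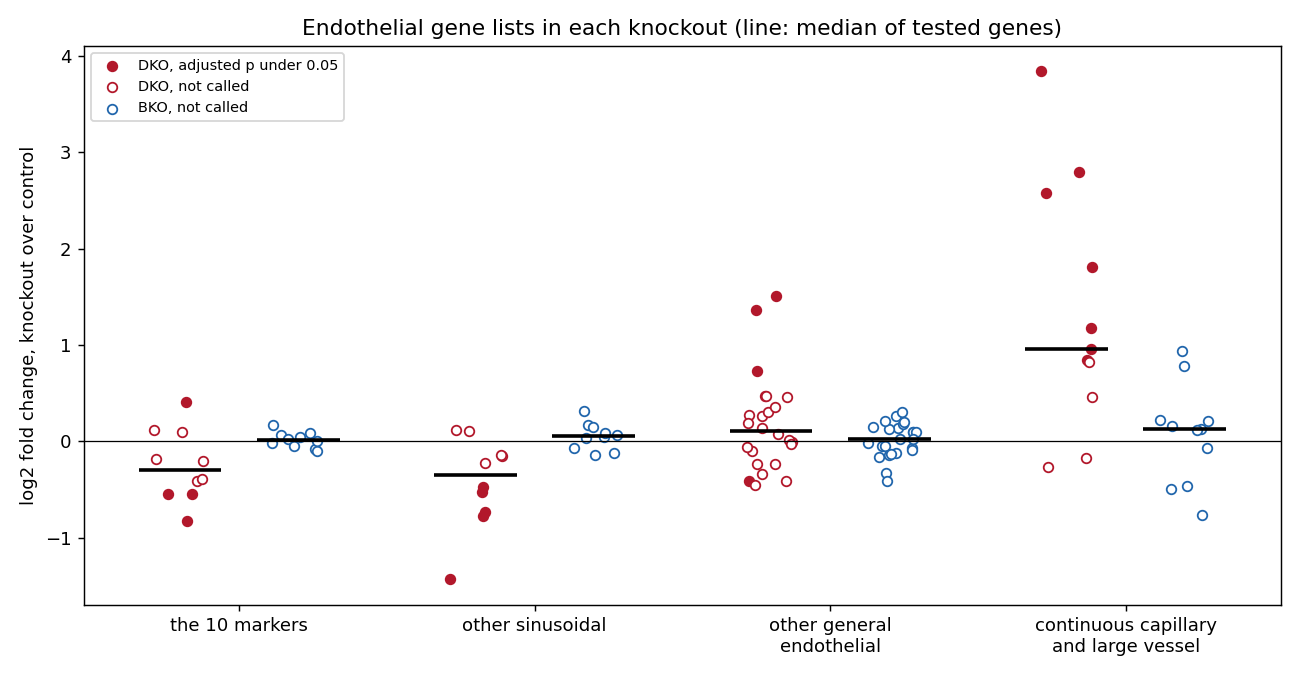
Log2 fold change of each gene (points) in the 10 endothelial genes and 3 other endothelial lists, in DKO and in BKO livers, with the median of each list as a bar. In DKO the medians are -0.30 for the 10 genes, -0.35 for other sinusoidal, 0.11 for other general and 0.95 for continuous capillary and large vessel genes, and in BKO all 4 lie near 0.

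The ligands of the receptors above were read from the same fits. Of 8 tested VEGF and angiopoietin ligands and co-receptors, 2 rose, 2 fell and 4 did not pass in DKO livers (median -0.12, and 0.07 with total-count scaling, a change of sign). Calls over all tested genes were 19.2% higher and 16.6% lower. Vegfa, the ligand of Kdr and Flt1, was 1.34-fold lower (149.7 ± 8.75 CPM in DKO, 201 ± 9.67 CPM in controls, edgeR adjusted p = 0.00846), a call that ended with total-count scaling, and Vegfb, which binds Flt1, had a log2 fold change of -0.75 (edgeR adjusted p = 0.0217). Vegfc, the ligand of the lymphatic VEGF receptor, was 3.47-fold higher (10.2 ± 0.759 CPM in DKO, 2.94 ± 0.796 CPM in controls). Angpt2, mostly an antagonist of TIE2, was 2.20-fold higher (6.26 ± 1.73 CPM in DKO, 2.85 ± 0.491 CPM in controls). In BKO livers Nrp2, a VEGF co-receptor gene, was the only gene of any list that passed (35.5 ± 4.84 CPM in BKO, 52.6 ± 3.29 CPM in controls, log2 fold change -0.57, edgeR adjusted p = 0.0375). That call was kept in 6 of 15 alternative settings. It ended with both F5 libraries summed (edgeR adjusted p = 0.0601), in the fit over all 16 libraries, and without any 1 library other than ARID1B-F3-KO (-0.60 to -0.50, edgeR adjusted p of 0.0653 to 0.149).

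Of 8 endothelial signals to hepatocytes, 1 rose, 2 fell and 5 did not pass in DKO livers (median 0.04), beside 19.2% higher and 16.6% lower of all tested genes. Hgf, the hepatocyte growth factor gene, which stellate cells also express, was 1.65-fold higher (39.9 ± 7.46 CPM in DKO, 24.2 ± 1.39 CPM in controls, edgeR adjusted p = 0.00231). Wnt2, a Wnt ligand gene of central vein and sinusoidal endothelium, was 2.60-fold lower (1.23 ± 0.356 CPM in DKO, 3.19 ± 1.03 CPM in controls, edgeR adjusted p = 0.00787), at 9 to 42 counts per library. In BKO livers Wnt2 had a log2 fold change of -0.61 and did not pass (edgeR adjusted p = 0.344), though the groups did not overlap. Its difference between the knockouts did not pass (-0.81, edgeR adjusted p = 0.151). Rspo3, which amplifies Wnt signals, was 1.67-fold lower (3.24 ± 0.519 CPM in DKO, 5.39 ± 1.13 CPM in controls, edgeR adjusted p = 0.0270). The Rspo3 call ended without DKO-7070, WT-7069 or WT-7114 and with total-count scaling. Of 17 BMP receptors, SMADs and targets, 4 fell and 0 rose in DKO livers. The share that fell was above the 16.6% of all tested genes, and the share that rose was below their 19.2%. In either direction the share was below the 35.8% of all tested genes. The median was -0.05, and 0.13 with total-count scaling, a change of sign. Hamp, the hepcidin gene, was 10.9-fold lower (66.9 ± 44.7 CPM in DKO, 731 ± 329.9 CPM in controls, edgeR adjusted p = 0.0125). Tmprss6, a liver protease gene that dampens this pathway, was 2.13-fold lower (212 ± 48.2 CPM in DKO, 452 ± 52.3 CPM in controls), and Atoh8, a transcription factor gene, 2.11-fold lower (10.9 ± 1.09 CPM in DKO, 23.0 ± 6.89 CPM in controls). The receptor gene Acvr2a was 1.53-fold lower (33.2 ± 1.24 CPM in DKO, 50.9 ± 4.12 CPM in controls). Hepatocytes express these 4 genes, and 4 of 8 hepatocyte markers were also lower in DKO livers (median -0.53), against 16.6% of all tested genes. Among them was Alb, at 53336 ± 11946 CPM in DKO and 100122 ± 7780.2 CPM in controls. Any link of the lower Bmp2 to Hamp, Tmprss6, Atoh8 or Acvr2a was not tested. Of the 17 genes, 7 had positive and 10 had negative log2 fold changes. Id1 (1.05, edgeR adjusted p = 0.148) and Id3 (0.64, edgeR adjusted p = 0.216) were positive and did not pass. The same held for the inhibitory SMAD genes Smad7 (0.26, edgeR adjusted p = 0.382) and Smad6 (0.23, edgeR adjusted p = 0.384). Smad9 was negative and did not pass (-1.12, edgeR adjusted p = 0.179). In BKO livers 0 of 17 passed.

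Markers of the other cells that share genes with the endothelial set were read as lists. In DKO livers all 7 recruited macrophage markers were higher (median 4.68), 5 of 8 Kupffer cell markers were higher (median 0.78, summed level 481 to 563 CPM in DKO and 305 to 516 CPM in controls), and 6 of 8 stellate cell markers were higher and 1 lower (median 2.35). The shares over all tested genes were 19.2% higher and 16.6% lower. Of the Kupffer cell markers, C1qa, C1qb, C1qc, Marco and Cd5l rose. Clec4f (-0.47, edgeR adjusted p = 0.0503) just missed the threshold, and Timd4 (-0.35, edgeR adjusted p = 0.389) and Vsig4 (-0.05, edgeR adjusted p = 0.824) did not pass. The DESeq2 Wald test called 5 of the 8 higher and 1 lower, and total-count scaling 5 higher and 0 lower. The difference between the knockouts passed for 0 of the 8 Kupffer cell markers (median -0.07). It was higher in DKO for 6 of 7 recruited macrophage markers and 5 of 8 stellate cell markers, and lower for 1 stellate cell marker. Of all genes in that test, 11% were higher and 11.5% lower. Of lymphatic endothelial markers 2 of 4 were tested and Prox1, which hepatocytes also express, fell (99.3 ± 35.7 CPM in DKO, 246 ± 39.0 CPM in controls), while Ccl21a had no count in any library. Of platelet markers 2 of 4 were tested, of which Pf4 rose and Itga2b did not pass. Of 5 bile duct markers only Sox9 passed the count filter in the DKO fit, and it was not called (log2 fold change -0.0032, edgeR adjusted p = 0.998). With no filter on low counts, 2 of the 5 were called higher in DKO livers. In the difference between the knockouts 3 of the 5 were higher in DKO, with differences of log2 fold changes of 4.22 for Krt19, 3.06 for Epcam and 4.51 for Cftr (edgeR adjusted p of 0.00991 to 0.0263). Part of this lay on the BKO side, where Krt19 had -2.63 and Epcam -1.03, neither called. Krt19 ranged from 0.475 to 7.88 CPM among the BKO controls. The Epcam difference passed in 17 of 23 alternative settings. No B cell marker passed the count filter in the DKO experiment. In BKO livers 0 genes of these lists were called. For Stab1, Lyve1 and Fcgr2b, which macrophages share, these values stand beside levels that did not pass, and the part of macrophages in them was not tested.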

How the data were processed

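Total RNA of whole liver was extracted with TRIzol and an RNeasy kit and made into libraries with NuGEN's Ovation system, per the protocols in the labels. The authors deposited raw read counts per gene, in 1 table for each experiment. The tools were HISAT2 2.1.0, featureCounts 1.6.2 and Trim Galore 0.4.1, per the submitters' processing notes, with the builds GRCm38, mm10 and GRCh38 given no role. No strand setting is stated in the sources used here, and 5 of the 10 genes overlap another gene in GENCODE M21 (Clec4g, Fcgr2b, Ptprb, Stab1, Stab2), 4 of them on the opposite strand (all but Ptprb). Reads of such a partner may be among their counts.

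Tests on counts used edgeR 4.0.16 in R 4.3.3 (robust quasi-likelihood test, filterByExpr, TMM, Benjamini-Hochberg over all genes tested, threshold 0.05), within each experiment and, for the difference, over 16 libraries and 24394 joint genes (27 names in the BKO table had become dates). Totals were 8699417 to 11031443 and 21151726 to 40551934 counts. Alternatives were other scalings and filters, DESeq2 1.42.0, libraries left out or summed, and a term for the tag runs. Columns left without a sample numbered 0.

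The members and lists were chosen with earlier results of these data known. All 10 members were named, with up to 3 called genes of each list and comparison by adjusted p at a mean of at least 1 CPM, or else the 1 with the lowest p. Oit3, Mrc1, Gpr182, Clec1b, Tek, Cdh5, Efnb2, Hey1, Vwf, Plvap, Vegfb, Cd5l, Clec4f, Timd4, Vsig4, Cftr, Id1, Id3, Smad7 and Smad9 were named after their values were seen. Exon lengths and coordinates are from GENCODE M21 on GRCm38.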

Additional observations from a re-analysis of the deposited data

Results flagged for a closer look

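In 4 of the 40 sets of 4 libraries (10 genes in 4 groups), 1 library lay apart from the rest of its group by Dixon's criterion, where chance gives about 5%. Kdr stood at 70.2 CPM in the DKO control WT-7114, with 91.5 to 94.5 CPM in the other controls. Kdr stood at 57.9 CPM in ARID1B-F3-KO, with 67.8 to 69.0 CPM in the other BKO libraries, and Ptprb stood at 174 CPM in the same library, with 214 to 221 CPM in the others. Flt1 stood at 12.8 CPM in the BKO control ARID1B-F5-WT-2, with 16.1 to 16.7 CPM in the other controls.

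The knockout effects differed between DKO and BKO for 4 genes in edgeR's test of the difference itself. Each knockout had its own experiment, so a difference between experiments cannot be told apart. The differences of log2 fold changes, DKO minus BKO, were -0.78 for Bmp2, -0.62 for Ptprb, -0.57 for Clec4g and -0.53 for Kdr.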

How the results depend on the processing

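No paired analysis was possible because the labels number no replicates across groups. The tag runs as a term left 1 of the 10 genes higher and 4 lower in DKO, Kdr being added. Scaling by total counts moved the median of all genes to 0.20 in DKO and 0.27 in the difference, and the share of calls that were higher to 72% (against 53.6%), 77.9% (against 49.1%) and, in BKO, 20.4% (against 31.7%). It left 1269 genes lower in DKO, 86 in BKO and 744 in the difference (2627 higher), with 1 of the 10 endothelial genes lower in DKO and, in the difference, 0 lower and 1 higher (Pecam1). Under it DKO Fcgr2b was 0.0117, BKO Stab1 -0.0495, Lyve1 -0.00564, Pecam1 -0.0659 and Ptprb -0.0290, and the differences were 0.0918 for Stab2, 0.182 for Fcgr2b and 0.218 for Flt1, each a change of sign in a value that did not pass. BKO Pecam1 was -0.00128 without a count filter and -0.0068 with at least 1 CPM in 4 libraries, and BKO Clec4g was 0.00929 with both F5 libraries summed. DESeq2 called 153 genes higher and 203 lower in BKO, and the fit over all 16 libraries called 13 and 37. Leaving out 1 library at a time gave 0 to 1 of the 10 genes higher and 3 to 5 lower in DKO, 2 to 4 lower in the difference, and 4 to 33 genes higher and 13 to 73 lower in BKO. In these fits, values that did not pass and changed sign ran from -0.00771 to 0.18 for DKO Flt1, and in BKO from -0.18 to 0.0506 for Bmp2, -0.11 to 0.0759 for Clec4g, -0.26 to 0.26 for Lyve1, -0.0910 to 0.10 for Pecam1 and -0.0674 to 0.10 for Stab1, and in the difference from -0.19 to 0.0150 for Flt1 and -0.0300 to 0.13 for Stab1. The causes of these changes were not tested. Depth limits Lyve1 most, with 92 to 226 counts per library in the DKO experiment.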

Other observations

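Within groups, the 10 genes varied together to different degrees. After centring log2 CPM on each group's mean, Pearson's r over 16 libraries ran from -0.10 for Stab2 with Clec4g to 0.86 for Lyve1 with Bmp2 across 45 pairs, with a median of 0.49. Stab1 with Lyve1 had 0.81, Stab1 with Pecam1 0.78 and Ptprb with Bmp2 0.78. These values are a description, and libraries share depth and tissue sampling across genes. Of 11029 genes compared, Ramp2, which encodes an adrenomedullin co-receptor of endothelium, was the most like the mean of the 10 (r = 0.93), followed by Art4 (0.89), Gpihbp1, a capillary lipase anchor gene (0.87), Oit3 (0.86) and Ptpn14 (0.85).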
